A study of Mus musculus with 2 samples.

Results

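The CTCF sites of the mouse Hoxa cluster in newborn hindbrain are described here. They are the peaks of the authors' optimal set whose summit lies in a window of 215 kb on chromosome 6 (mm10), from within Halr1 to just past Evx1, around Hoxa2, Hoxa3, Hoxa4, Hoxa5, Hoxa6, Hoxa7, Hoxa9, Hoxa10 and Hoxa11. The rule found 9 peaks of the 62686 in the set, and it used position only, not the signal. CTCF chromatin immunoprecipitation and sequencing (ChIP-seq) was done on hindbrain of B6NCrl mice taken on postnatal day 0, from several dissections that were pooled and pulverised. The labels give 1 group of 2 libraries from the same pooled tissue, and any spread between these libraries can be technical, with no other condition to compare. Each library has its own list of 300000 candidate peaks, both libraries together gave a pooled list of 251251 peaks, and the optimal set was drawn from them by irreproducible discovery rate (IDR), which scores the repeatability of peak ranks. Signal values are the authors' own, in a scale whose unit is not stated, and the read depth is unknown because the files hold peaks and not counts. In bulk tissue, a site bound in fewer cells and a site bound more weakly in every cell cannot be told apart. Peaks of a single factor do not give levels of marker genes, so the tissue label was not checked.

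Hox genes encode homeodomain transcription factors that set position along the body axis. Within a cluster they lie in the order in which they are expressed along the axis: in mouse, Hoxa2 and Hoxa3 act in the hindbrain segments and their neural crest, Hoxa4 to Hoxa7 further back in the trunk, and Hoxa9 to Hoxa11 in the posterior trunk and the limbs. CTCF is a zinc finger protein that stops the extrusion of chromatin loops by cohesin, and its motif has a direction, so that loops mostly form between motifs that point towards each other. In motor neurons grown from mouse embryonic stem cells, CTCF sites between Hoxa5 and Hoxa9 are known to separate silent from active Hoxa chromatin. All 9 member genes are on the minus strand, so that within the window transcription runs from Hoxa11 towards Hoxa2.

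The sequences under the summits are shown first, because their direction and their match to the CTCF core set the sites apart from each other. The CTCF core consensus, 14 bases long, was looked for on either strand in the 50 bp to each side of the summit, with up to 2 mismatches. Each line gives 30 bases of the reference genome (GRCm38, the assembly of mm10) read 5′ to 3′ on the strand of the best match, with the 14 bases of the core match in capitals.
Between Hoxa4 and Hoxa5, chr6:52197456-52197485, minus strand, 2 mismatches: aggaatcgCCAGCAGAGCTCGCtttagtac
Between Hoxa5 and Hoxa6, chr6:52204649-52204678, minus strand, 1 mismatch: cccagtctCCAGCGGGTGGCGCtcgagtcc
Between Hoxa6 and Hoxa7, chr6:52211716-52211745, plus strand, 3 mismatches: ggcgacggCCACAGCGTGGCAGcagcgagc
Between Hoxa7 and Hoxa9, chr6:52221799-52221828, minus strand, 1 mismatch: agaaaattCCAGGAGATGGCAGtgtggctc
Between Hoxa9 and Hoxa10, chr6:52229581-52229610, plus strand, 2 mismatches: ggcaactgAGAGTAGAGGGCGCccttgcag
Between Hoxa10 and Hoxa11, chr6:52240531-52240560, minus strand, 1 mismatch: cgcagccgCCACGAGATGGCGCactcccga
The first site beyond Hoxa11, chr6:52257113-52257142, plus strand, 2 mismatches: gcttgtcaACACGAGGTGGCGCccttgatc
The second site beyond Hoxa11, chr6:52270694-52270723, plus strand, 3 mismatches: atctttccCCACTAGATGTCTTccaagtta
The third site beyond Hoxa11, chr6:52306044-52306073, plus strand, 2 mismatches: ggcgatcgGCAGTGGGGGGCGCaccaagac

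The sites were spread over 6 of the 8 gaps between the coding spans of neighbouring members, with 1 peak in each, and 3 more lay beyond Hoxa11. The gaps between Hoxa2 and Hoxa3 and between Hoxa3 and Hoxa4 held none. Below the site between Hoxa4 and Hoxa5, the next optimal peak was 151.7 kb away, at chr6:52045575-52045894 with a signal of 51.5, outside the window. A distance at least as long separated 4.85% of all neighbouring optimal peaks. That share counts distances, and long distances cover more of the genome than short ones. The share of genes or bases that lie in such stretches was not computed. The genes at the hindbrain end of the cluster thus lay in a stretch with no optimal peak, while neighbouring sites from the gap between Hoxa4 and Hoxa5 to the third site beyond Hoxa11 were 7.06 to 35.3 kb apart. The next peak past the third site was 184.4 kb away, with a signal of 35.1. For the window as a whole, 9 peaks were more than in most of 12664 tiles of the same length. The tiles had a median of 3 and an upper quartile of 8, and 21.4% of them held at least 9.

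**Figure D1:**
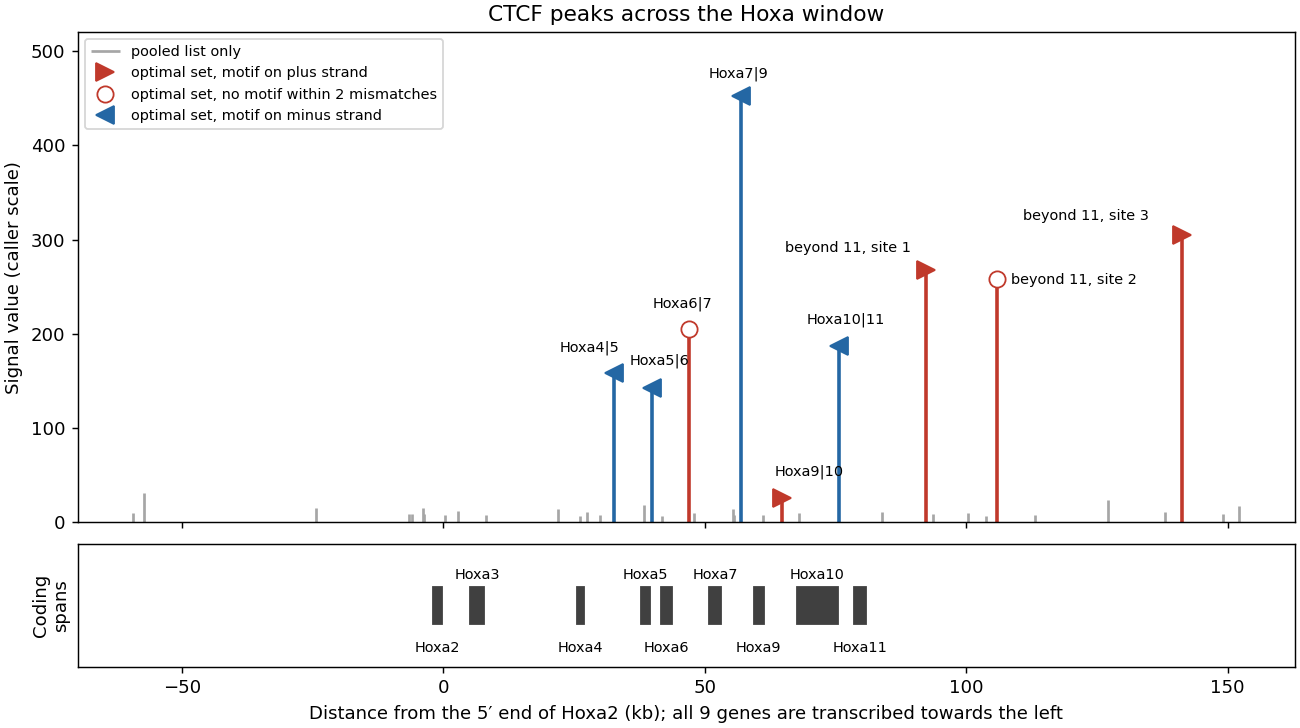
Signal of CTCF peaks (vertical axis, caller scale) by distance in kb from the 5′ end of Hoxa2 (horizontal axis), with the coding spans of the 9 member genes below. Triangles mark optimal peaks with a core match and point along its strand, open circles mark those without, and grey lines are peaks of the pooled list only: no optimal peak lies left of the site between Hoxa4 and Hoxa5, and the highest, between Hoxa7 and Hoxa9, reaches 452.9.

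The strongest site of the cluster lay between Hoxa7 and Hoxa9 (peak chr6:52221673-52221950). Its signal was 452.9, rank 901 of the optimal set, so that 1.44% of optimal peaks were as strong or stronger. It ranked 1133 in replicate 1 and 808 in replicate 2, with the same summit in both. The summit was 43 bp from the start of Hoxa7-204, a long Hoxa7 transcript, and lay in the annotated 5′ untranslated exon of that transcript.

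The sites around Hoxa5 and Hoxa6 were at or below the median signal of the 9 sites, 205.2, but all among the strongest 33.3% of the optimal set. Between Hoxa4 and Hoxa5 (chr6:52197372-52197547) the signal was 158.6, with ranks of 19569 and 17654 in replicates 1 and 2. Between Hoxa5 and Hoxa6 (chr6:52204607-52204766) it was 143.0, with ranks of 22237 and 17928, and the summit lay 83 bp upstream of the Hoxa5 start. Between Hoxa6 and Hoxa7 (chr6:52211621-52211831) it was 205.2, with ranks of 13855 and 15689, and the nearest start was that of the long transcript Hoxa3-201 at 1381 bp. All of these lie in introns of Hoxa3, whose long transcript Hoxa3-201 starts beyond Hoxa6, and of the antisense RNA Hoxaas3.

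At the posterior end the signal differed most between neighbours. Between Hoxa9 and Hoxa10 (chr6:52229449-52229768) it was 26.3, the weakest of the 9, with ranks of 57507 in replicate 1 and 70594 in replicate 2. This peak lay in the exon of Hoxa9-205, a 1-exon transcript annotated as a retained intron. It was 556 bp from the start of Mir196b, a microRNA gene in the cluster. Between Hoxa10 and Hoxa11 (chr6:52240440-52240643) the signal was 187.5, with ranks of 17550 and 14066, and the summit lay in the annotated 5′ untranslated exon of the transcript Hoxa10-201. A site of rank 55629 in the optimal set was therefore flanked by neighbours of ranks 901 and 15996.

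The 3 sites beyond Hoxa11 were stronger than all sites between Hoxa2 and Hoxa11 other than the one between Hoxa7 and Hoxa9. The first (chr6:52257021-52257238), which lies between Hoxa11 and Hoxa13 and so still within the cluster, had a signal of 267.9 with ranks of 10197 and 8922, in the exon of the unclassified transcript 9530018H14Rik. The second (chr6:52270575-52270800) had 258.4 with ranks of 11550 and 8727, in intergenic sequence. The third (chr6:52305949-52306159) had 305.4 with ranks of 7266 and 6696, in intergenic sequence 7446 bp from the start of Evx1, the homeobox gene next to the cluster.

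Both libraries put the sites in nearly the same order. IDR selects peaks with repeatable ranks, so part of this agreement comes with the choice of optimal peaks. The site between Hoxa7 and Hoxa9 came first and the one between Hoxa9 and Hoxa10 last in each, and the order differed only between the first and the second site beyond Hoxa11, and between the site in the Hoxa6 to Hoxa7 gap and the one in the Hoxa10 to Hoxa11 gap. The rank of a site in the library where it was weaker was 1.09 to 1.40 times its rank in the other, with a median of 1.23. Over 62362 optimal peaks listed in both libraries the median was 1.16, and the middle 50% ran from 1.07 to 1.32. Summits in the libraries were 0 to 24 bp apart, with a median of 5 bp against 10 bp over all optimal peaks. Among the 62686 strongest peaks of both libraries were 8 of the 9 sites, all but the one between Hoxa9 and Hoxa10, against 82.8% of optimal peaks. All 9 were in the conservative set, against 87.1%. In signal, 8 of 9 stood among the strongest 33.3% of the optimal set, with a median of 205.2 over the sites and 73.9 over all optimal peaks.

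**Figure D2:**
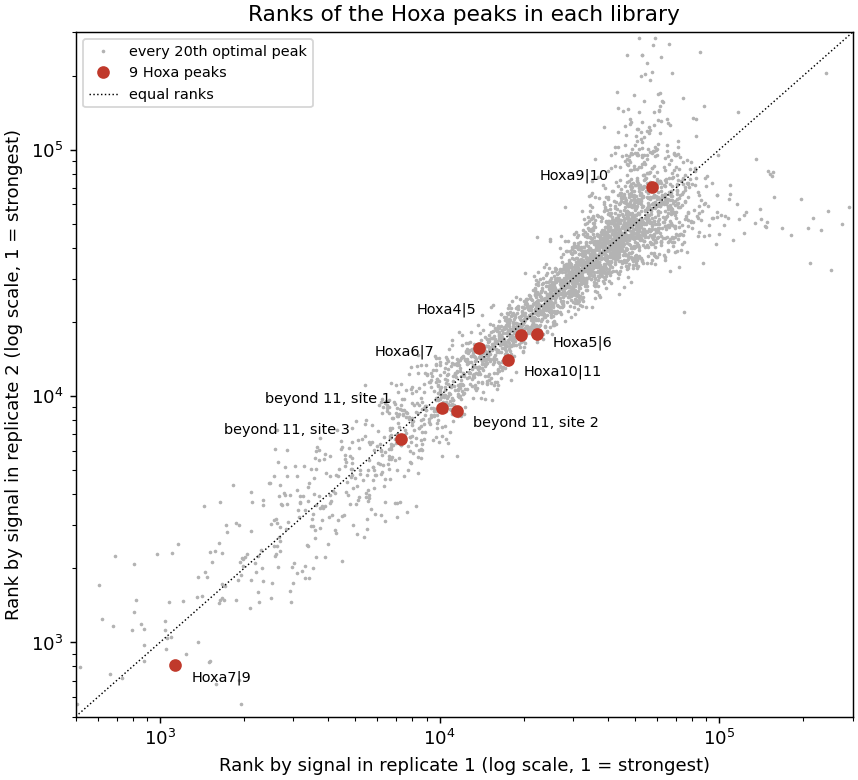
Rank by signal in replicate 2 (vertical, log scale) against replicate 1 (horizontal, log scale) for the 9 Hoxa peaks (red) and for 1 in 20 of the optimal peaks (grey), with a dotted line of equal ranks. The Hoxa peaks lie within the grey cloud, from ranks of 1133 and 808 between Hoxa7 and Hoxa9 to ranks of 57507 and 70594 between Hoxa9 and Hoxa10.

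The CTCF core was matched with at most 2 mismatches at 7 of the 9 sites, against 65.4% of optimal peaks, and against 2.85% and 2.98% of windows 1 kb to the left and right. With at most 1 mismatch it was matched at 3 sites, against 34.7% of optimal peaks, and with at most 3 at all 9, against 86.3%. The match with at most 2 mismatches lay 0.5 to 13.5 bp from the summit. Of the 7 matches, 4 were on the minus strand, against 50.2% of all matched optimal peaks, and 3 on the plus strand. The minus strand is the strand of the Hoxa genes themselves, and it carried the match between Hoxa4 and Hoxa5, Hoxa5 and Hoxa6, Hoxa7 and Hoxa9, and Hoxa10 and Hoxa11. Of the matches between Hoxa2 and Hoxa11, the one at the weak site between Hoxa9 and Hoxa10 was on the plus strand, as were both matches beyond Hoxa11. The site between Hoxa10 and Hoxa11 and the first site beyond Hoxa11, 16.6 kb apart, therefore pointed away from each other. The site between Hoxa7 and Hoxa9 and its weak neighbour also pointed apart, while that neighbour and the site between Hoxa10 and Hoxa11 pointed towards each other. Of the 6 pairs of neighbouring matched sites, 3 thus had the same direction, against 52.6% over the genome, 2 were divergent, against 23.7%, and 1 was convergent, against 23.7%.

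A weight matrix of 20 positions, built from 20427 matches on other chromosomes, graded the sites further. Its score is in bits, a log2 ratio of the chance of the sequence under the motif and under even base composition. The matrix picked the same bases and strand as the consensus at each of the 9 sites. It was built from matches to that consensus, so this agreement is partly built in. The score was 17.1 bits between Hoxa7 and Hoxa9, 15.9 between Hoxa10 and Hoxa11 and 15.3 between Hoxa5 and Hoxa6, against a median of 13.3 over all optimal peaks and −5.52 in windows 1 kb to the left. The first site beyond Hoxa11 reached 12.9 bits, the third 9.29, and the site between Hoxa4 and Hoxa5 7.04. The lowest were 6.61 between Hoxa9 and Hoxa10, 5.90 at the second site beyond Hoxa11 and 5.26 between Hoxa6 and Hoxa7. A limit of 5.32 bits, passed by 5% of the windows to the left, was passed by 8 of the 9 sites, all but the one between Hoxa6 and Hoxa7, and by 76.9% of optimal peaks.

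Motif score and signal did not rank the sites alike. Over the optimal set the median score rose from 4.80 bits in the weakest decile of signal to 17.7 in the strongest. The site between Hoxa6 and Hoxa7 had 5.26 bits where the median of its signal decile was 15.8, and the second site beyond Hoxa11 had 5.90 where it was 16.8. With the site between Hoxa4 and Hoxa5 and the third site beyond Hoxa11, 4 of the 9 scored below the lower quartile of their decile, a level that 25% of optimal peaks fall below by construction. The bases under the whole peak between Hoxa6 and Hoxa7 are printed because this site combined a signal among the strongest 23.1% of optimal peaks with the lowest motif score of the 9. The best core match is in capitals, and the peak overlaps no annotated exon.
Whole peak between Hoxa6 and Hoxa7, chr6:52211621-52211831, plus strand: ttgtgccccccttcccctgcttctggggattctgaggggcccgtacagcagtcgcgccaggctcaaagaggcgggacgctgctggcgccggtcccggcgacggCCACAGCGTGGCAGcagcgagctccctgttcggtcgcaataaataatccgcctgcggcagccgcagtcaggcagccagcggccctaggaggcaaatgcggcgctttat

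**Figure D3:**
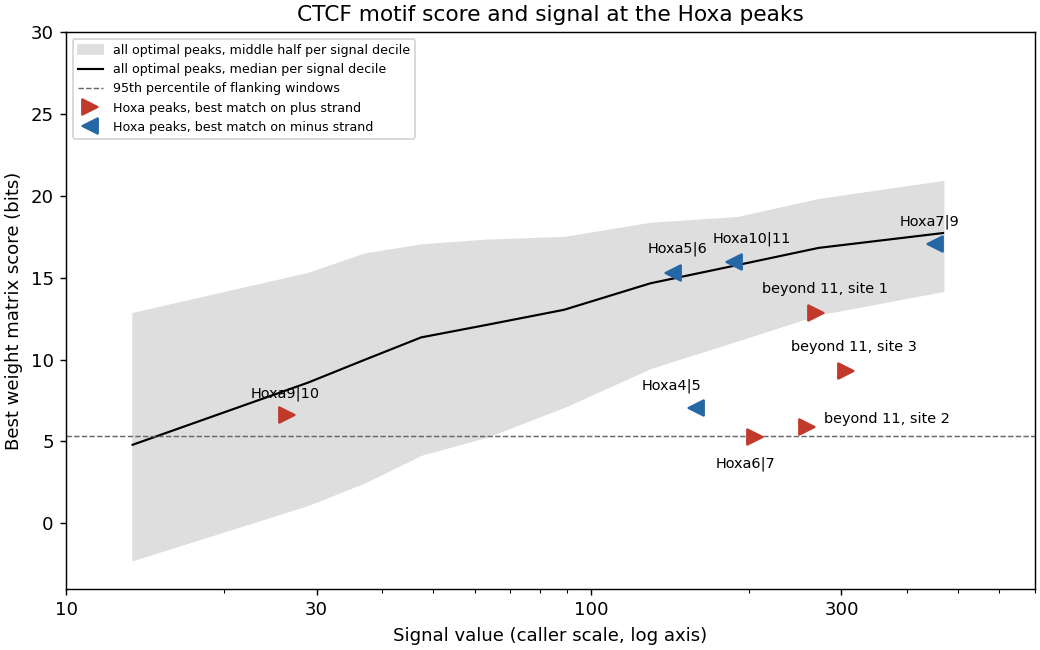
Best weight matrix score in bits (vertical) against signal (horizontal, log axis) for the 9 Hoxa peaks, over the median (line) and the middle 50% (band) of all optimal peaks in each signal decile, with a dashed line at the 95th percentile of windows 1 kb to the left. The sites between Hoxa4 and Hoxa5 and between Hoxa6 and Hoxa7, and the second and the third site beyond Hoxa11, lie below the band, and the other 5 lie within it.

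At the genes themselves, 4 of the 9 members had an optimal peak within 1 kb of an annotated start site, against 39.8% of 21938 protein-coding genes. Distances were 83 bp for Hoxa5, 43 bp for Hoxa7, 249 bp for Hoxa10 and 670 bp for Hoxa9. For Hoxa7, Hoxa9 and Hoxa10 the start is one of 5, 5 and 4 annotated starts, whereas Hoxa5 has 1. With the 5′ end of each gene as its only start, 3 members (Hoxa5, Hoxa7 and Hoxa10) kept a peak within 1 kb, against 31.8% of protein-coding genes, and Hoxa9 did not, its 5′ end being 1480 bp away. Counting the starts of all annotated genes, 5 of the 9 sites lay within 1 kb of one, against 21% of optimal peaks. Of the members without a peak, Hoxa3 came closest at 1381 bp, followed by Hoxa6 at 3012 bp, Hoxa11 at 5249 bp and Hoxa4 at 5719 bp. Hoxa2, which specifies the identity of a hindbrain segment and its neural crest, was 32.6 kb from the nearest optimal peak.

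Weaker peaks that the optimal set does not hold were also looked up at these starts. Of the 9 members, 6 had such a peak of the pooled list within 1 kb, against 58.4% of protein-coding genes, and the strongest is given for each. At Hoxa2 it had a signal of 8.05 and overlapped a peak in replicate 1 alone, rank 103100. At Hoxa3 it had 9.93, at Hoxa4 10.7 and at Hoxa7 14.4, the last with ranks of 132550 and 116897 in replicates 1 and 2. At Hoxa9 it had 8.07 and at Hoxa10 9.81, with an overlapping peak in replicate 2 alone. All of these lay well under the 26.3 of the weakest optimal site and near 9.27, the median of all pooled peaks outside the optimal set. Hoxa5, Hoxa6 and Hoxa11 had none.

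Of the 5 sites within 1 kb of a start, 4 lay in CpG-rich sequence. The ratio of observed to expected CpG over 1001 bp was 0.993 at the site between Hoxa5 and Hoxa6, 0.685 between Hoxa10 and Hoxa11, 0.633 between Hoxa7 and Hoxa9 and 0.630 between Hoxa9 and Hoxa10. It was 0.338 to 0.563 at the other 5 sites, with 0.448 at the first site beyond Hoxa11, which is 333 bp from the start of 9530018H14Rik. A ratio over 0.6 was thus found at 4 of 9 sites, against 10.1% of all optimal peaks. Within 1 kb of a start it was found at 4 of 5, against 42.6% of such optimal peaks. GC content ran from 38.0% at the first site beyond Hoxa11 to 58.9% between Hoxa7 and Hoxa9. Masked repeat bases reached the 101 bp around the summit at 1 site, between Hoxa9 and Hoxa10, and at 41.9% of optimal peaks.

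The whole peak at the Hoxa5 start is shown because it lies upstream of the gene's only annotated start and holds the match in the middle of this CpG-rich stretch. It is read on the plus strand, so the core match in capitals appears reversed and complemented.
Whole peak at the Hoxa5 start, chr6:52204607-52204766, plus strand: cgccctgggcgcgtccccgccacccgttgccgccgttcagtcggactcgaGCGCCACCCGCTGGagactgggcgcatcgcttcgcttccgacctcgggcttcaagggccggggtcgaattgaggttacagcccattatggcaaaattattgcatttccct

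Mice have 4 Hox clusters that arose by duplication, so that genes with the same number (paralogues) can be set side by side. Among the genes of groups 2 to 11 the reach of the clusters differs, with Hoxb taken up to Hoxb9, Hoxc from Hoxc4 and Hoxd from Hoxd3. Within these bounds Hoxa held 6 optimal peaks in 82.8 kb, Hoxb 7 in 82.1 kb, Hoxc 4 in 81.5 kb and Hoxd 5 in 64.7 kb. The gap between groups 5 and 6 held a site in each cluster that has both genes. Its summit was 83 bp from the start of Hoxa5, 83 bp from that of Hoxb5 and 113 bp from that of Hoxc5, and the match was on the strand of the Hox genes in all 3. The signal was lowest in Hoxa, at 143.0, against 302.8 in Hoxb and 247.9 in Hoxc. These matches are shown for comparison with that of Hoxa, with the core in capitals.
Hoxb5 start, chr11:96303237-96303266, plus strand: gtcaatcgCCGGGAGGTGGCGCgctctgct
Hoxc5 start, chr15:103013694-103013723, plus strand: ccgagtcgGCACCAGGTGTCGCtgtgagct

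Of the 14 core letters, the Hoxa5 site shared 11 with the Hoxb5 site and 10 with the Hoxc5 site, and of the 16 flanking letters 6 and 8. Neighbouring matches along the genome, over 40285 pairs, shared a median of 9 core and 4 flanking letters. At least 10 core letters were shared by 46.9% of these pairs and at least 11 by 24.2%. At least 6 flanking letters were shared by 30.8% and at least 8 by 9.24%. The sites between groups 4 and 5 of Hoxa and Hoxb shared 11 core and 9 flanking letters, a flanking count that 4.89% of the genome pairs reached, and both pointed along the genes. The site between Hoxa6 and Hoxa7, which has no match within 2 mismatches, was less alike in its core. It shared 7 core and 8 flanking letters with the stronger site between Hoxb6 and Hoxb7. With the weaker site there, which has no match either, it shared 5 and 2. The genome pairs are of matches, so core counts at sites without a match are not like for like. The site between Hoxa10 and Hoxa11 shared 10 core and 7 flanking letters with that at Hoxc10, 11 and 7 with the stronger site between Hoxd10 and Hoxd11, and 9 and 3 with the weaker. The match between Hoxb4 and Hoxb5, the most alike in its flanks of these 8 comparisons, is shown with its core in capitals.
Between Hoxb4 and Hoxb5, chr11:96311734-96311763, plus strand: cggatctgCCAGTAGAGTCCGCcttagacc

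The gap between Hoxc4 and Hoxc5 held no optimal peak. The gap between groups 10 and 11 held a site near group 10 in Hoxa (249 bp, signal 187.5) and Hoxc (219 bp, signal 164.8), both along the genes. In Hoxd that gap held a site at 145 bp from Hoxd10 with no match and a signal of 47.6, and one with a match along the genes and a signal of 149.5, which was 4166 bp from Hoxd11. Matches in the 4 clusters lay along the genes in 4 of 5 cases in Hoxa, 3 of 5 in Hoxb, 2 of 2 in Hoxc and 3 of 3 in Hoxd. The share of matches along the nearest gene was not computed over the genome. By strand, 50.2% of all matched optimal peaks were on the minus strand. Above the weight matrix limit the counts along the genes were again 4 of 5 in Hoxa and 3 of 5 in Hoxb. In Hoxc and Hoxd they were 3 of 4 each. A site within the coding span of Hoxc10 and one within that of Hoxd10 pointed against the genes. None of these differences between clusters was tested, since sites in a cluster share a locus and the clusters share an ancestor.

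**Figure D4:**
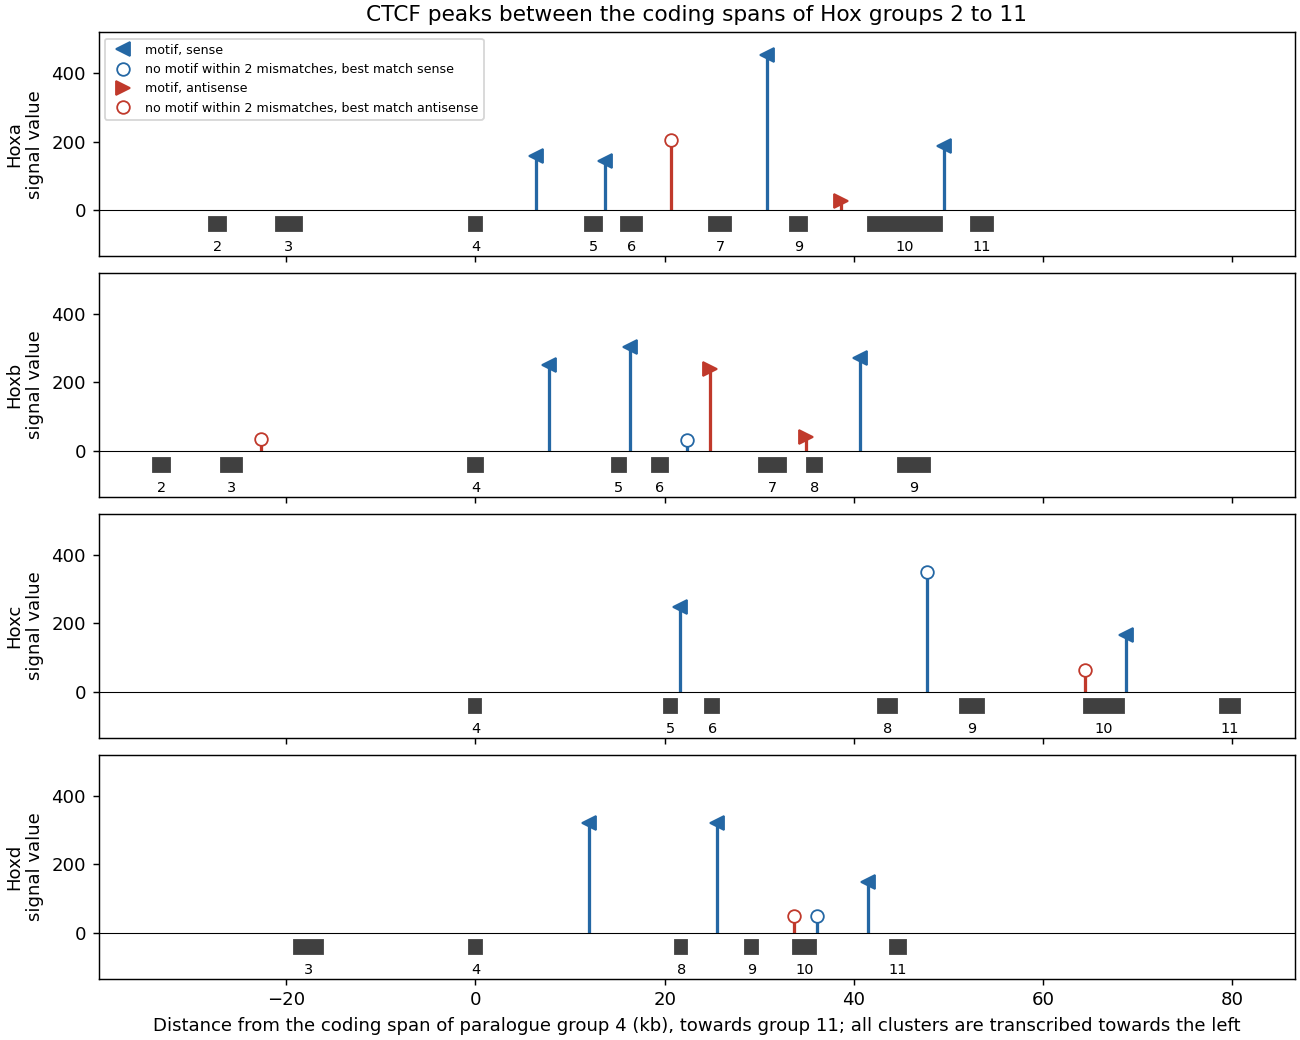
Signal of optimal peaks (vertical, caller scale) between the coding spans of groups 2 to 11 in the 4 Hox clusters, by distance in kb from group 4 towards group 11 (horizontal), with coding spans as numbered boxes. Triangles mark core matches and point along their strand (blue along the genes, red against them), and open circles mark peaks without a match: blue sites at group 5 recur in Hoxa, Hoxb and Hoxc at signals of 143.0, 302.8 and 247.9.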

How the data were processed

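CTCF ChIP-seq peak lists of 2 libraries from 1 pooled tissue sample were used. Per the deposited descriptions of the files, peaks were called on mm10 for each library and for both together, and the optimal and conservative IDR sets were derived from those lists. Not given in the sources used here are the aligner, the peak caller and the IDR threshold. Peaks were ranked, within each list, by the signal score the authors deposited. The deposited q value, on a −log10 scale, is at its maximum for 79.6% of optimal peaks and was not used for ranking. The files give no read counts, so depth is unknown.

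The members and lists were chosen with earlier results of these data known. Every optimal peak in the window and all 9 genes are named, and of weaker pooled peaks the strongest within 1 kb of each gene's starts. Genes came from GENCODE vM21 and bases from RefSeq's GRCm38.p6. A peak was matched to the overlapping peak with the nearest summit in each library. Gaps run between coding spans. The 20-base weight matrix used untied matches with at most 1 mismatch on chromosomes other than 6, with 1 count added per base. Peaks on chromosomes 1 to 19, X and Y (62677) gave the genome-wide shares. The motif search was tested on simulated sequences. There is no contrast, so no test was run. Python 3.11.15, numpy 2.4.6, pandas 2.3.3 and pysam 0.24.0 were used.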

Additional observations from a re-analysis of the deposited data

How the results depend on the processing

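All 6 results (the number of peaks, of core matches, of matches on the minus strand, of members with a peak at a start, of occupied gaps, and the strongest signal) were recomputed under 40 alternatives in all. With at most 1 mismatch 3 of the 9 sites kept a core match, and in the other 39 alternatives each result stayed within 1.5 times its value. For the minus strand this holds for the count and not for its share of the matches. That was 3 of 3 with at most 1 mismatch, 4 of 7 with at most 2 and 4 of 9 with at most 3. Some of the alternatives could not have moved a result. The strongest signal was 452.9 in both alternatives run for it, because both carry the same signal values and kept that peak. Merging summits under 150 bp could not change a count, since neighbouring sites were at least 7.06 kb apart. Among the 62686 strongest peaks of a library, the window held 9 in replicate 2 (8 of the sites and chr6:52291714-52292033) and 10 in replicate 1 (all 9 sites and chr6:52107458-52107777), and members with a peak numbered 3 and 4. The site between Hoxa9 and Hoxa10, and with it the peak at a Hoxa9 start, was not among those of replicate 2 or among the 31343 strongest optimal peaks. With gaps taken between 5′ ends, 6 gaps were again occupied, but not the same 6. The Hoxa3 to Hoxa4 gap could hold no peak in this setting, because the 5′ end of Hoxa3 lies past that of Hoxa4. The Hoxa2 to Hoxa3 gap came in because the 5′ end of Hoxa3 lies beyond Hoxa6, and its 3 sites count again in later gaps. The Hoxa10 to Hoxa11 gap fell out because its site lies 308 bp on the Hoxa9 side of the Hoxa10 5′ end. No paired analysis was possible because there is 1 group. Depth is unknown, so a stretch without a peak shows only that none passed the authors' threshold.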

Other observations

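The pooled list held 30 further peaks in the window that are not in the optimal set, with signals of 7.03 to 31.2, and 1 of them had a core match, against 15.8% of pooled peaks outside the optimal set. That peak, singled out after its values were seen, lay at chr6:52107458-52107777 in an intron of Halr1, a long noncoding RNA gene on the Hoxa2 side of the cluster. Its signal of 31.2 was above the 26.3 of the optimal site between Hoxa9 and Hoxa10. It ranked 48640 in replicate 1 and 67821 in replicate 2. Its weight matrix score of 18.9 bits was higher than that of each of the 9 optimal sites, where the highest was 17.1. The match, in capitals, pointed along the Hoxa genes.
Halr1 intron, chr6:52107588-52107617, minus strand: caagcaggCCAGAAGAGGGCGAtgggtccc

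At the other end, a pooled peak between the second and the third site beyond Hoxa11 (chr6:52291714-52292033, signal 24.0, also chosen after its values were seen) ranked 106891 in replicate 1 and 48076 in replicate 2, and had no core match. The remaining pooled peaks in the window had signals of at most 18.3.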
